A study of Mus musculus with 23 samples.

Results

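Ribosome biogenesis factors are nucleolar proteins that make, modify, cut and fold ribosomal RNA and join it to ribosomal proteins. The set described here is a list of 46 genes chosen by symbol, with earlier results of these data known. Shares of the set given beside those of all genes describe the set and are not an independent test. All 46 were found among the 52636 genes of the deposited tables, and all 46 passed the filter on low counts that left 15782 genes for testing. The samples were mouse bone marrow-derived macrophages, which are macrophages grown in culture from bone marrow cells, labelled Stk40 KO or WT. The KO groups were untreated cells at T0 and cells given lipopolysaccharide (LPS), a cell wall component of Gram-negative bacteria, at T6, T16 and T32, with 3 libraries each. The WT groups had the same treatments and times with 3 libraries each, except T16, which had 2. No source used here gives the unit of time, the deleted part of Stk40, the strain, or whether libraries came from separate mice or cultures.

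RNA polymerase I transcribes the ribosomal RNA precursor in the nucleolus. Box C/D and box H/ACA small nucleolar ribonucleoproteins (snoRNPs) then methylate and pseudouridylate it, the small subunit processome folds and cuts it on the way to the 40S subunit, and a separate set of factors matures the 60S subunit. Many genes of this machinery are known targets of the transcription factor MYC, which binds the E-box with its partner MAX, and MXD proteins compete with MYC for MAX.

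Total counts were 19455080 to 44097733 per library. Values per library are given as CPM, counts scaled by library size and TMM factor. Stk40 itself had 51.7, 61.3 and 56.5 CPM in KO against 52.5, 52.2 and 39.7 CPM in WT at T0 and 388, 354.5 and 385 CPM in KO against 322, 335 and 281 CPM in WT at T6. It had 166, 155 and 162 CPM in KO against 96 and 143 CPM in WT at T16 and 107, 106 and 102 CPM in KO against 69, 80.5 and 99 CPM in WT at T32, and averaged over the times it was higher in KO (0.32 ± 0.08, adjusted p = 0.00629, edgeR). A count over the whole gene does not check the labels where the deleted part is not known, so KO and WT below mean libraries with those labels. KO T0 replicate 1 had 0.355% of its counts in mitochondrial genes, and the other T0 libraries had 1.38 to 1.82%. Its 10 leading genes held 13.4% of its counts, against 10.5 to 11.7% in the other T0 libraries. WT T16 replicate 2 held Y-linked transcripts at 42.8 CPM and had the highest share of counts in its 10 leading genes, 17.4%. In all, 4 WT libraries, 1 at each time, held Y-linked transcripts at 42.8 to 143 CPM, and the other 19 libraries at no more than 0.107 CPM. Y-linked transcripts come from male cells, so the libraries of a WT group did not all come from the same cells. No KO library was among the 4, so KO and WT were not balanced for Y-linked RNA. In bulk RNA, fewer cells of a type and less RNA per cell cannot be told apart.

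The promoters of 39 of the 46 genes are held in RefSeq windows (GRCm38.p6) that run from 250 bases before to 50 bases after the start. They are shown because MYC is known to bind the letters CACGTG, an E-box that reads the same on both strands. CACGTG occurred in 7 of the 39 windows (17.9%) and in 1957 of 27025 windows of all genes (7.24%), with 1 window per gene. CCAAT, searched on both strands and unable by its letters to overlap CACGTG, occurred in 38.5% of the 39 windows and 37.9% of all. The E-boxes lay in Imp4, Nop2, Utp20, Pes1, Mybbp1a, Utp18 and Wdr43. A match of letters describes the window, not binding. The 4 windows below belong to genes with an E-box, in capitals, that were called lower in KO than in WT at T16. The other 3, Utp18, Utp20 and Wdr43, were not called there, and the 4 of 7 compares with 23 of the 46 genes. Counted from the start, the E-box begins at -60 in Nop2, -121 in Imp4, 40 in Mybbp1a and 2 in Pes1.
Nop2 (chr6:125131633-125131932, plus strand): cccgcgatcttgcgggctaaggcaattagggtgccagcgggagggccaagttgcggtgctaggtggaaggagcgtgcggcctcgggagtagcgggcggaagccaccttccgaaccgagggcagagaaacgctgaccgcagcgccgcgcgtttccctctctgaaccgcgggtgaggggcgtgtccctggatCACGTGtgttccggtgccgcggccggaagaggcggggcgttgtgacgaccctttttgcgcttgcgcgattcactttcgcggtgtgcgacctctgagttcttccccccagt
Imp4 (chr1:34439579-34439878, plus strand): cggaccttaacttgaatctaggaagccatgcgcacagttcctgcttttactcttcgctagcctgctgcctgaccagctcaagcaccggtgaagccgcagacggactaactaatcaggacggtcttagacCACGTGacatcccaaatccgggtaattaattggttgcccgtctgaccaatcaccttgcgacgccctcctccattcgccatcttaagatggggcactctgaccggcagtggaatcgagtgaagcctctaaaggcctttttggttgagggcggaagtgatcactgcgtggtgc
Mybbp1a (chr11:72441077-72441376, plus strand): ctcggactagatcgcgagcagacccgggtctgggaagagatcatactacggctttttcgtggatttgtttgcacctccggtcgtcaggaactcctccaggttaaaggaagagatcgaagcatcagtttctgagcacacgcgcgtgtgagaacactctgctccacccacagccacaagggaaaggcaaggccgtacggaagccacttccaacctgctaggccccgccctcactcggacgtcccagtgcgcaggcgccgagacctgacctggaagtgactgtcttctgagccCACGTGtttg
Pes1 (chr11:3963725-3964024, plus strand): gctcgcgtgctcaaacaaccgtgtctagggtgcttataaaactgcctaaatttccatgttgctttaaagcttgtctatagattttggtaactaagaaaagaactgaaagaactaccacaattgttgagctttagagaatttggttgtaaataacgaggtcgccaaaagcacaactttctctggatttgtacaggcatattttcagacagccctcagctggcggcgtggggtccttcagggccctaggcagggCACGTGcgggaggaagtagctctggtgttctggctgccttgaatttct

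At T0 the levels per gene length, as the nRPKM values that the authors deposited, spanned 0.382 for Wdr12 to 27.7 for Noc2l, averaged over the 6 libraries. The next highest were Nhp2 at 24.9, Ncl at 24.6 and Mybbp1a at 16.1 nRPKM. Fbl (fibrillarin), known as an abundant protein, stood at 0.617 nRPKM. Of the 50-base words of its longest coding transcript, 70.4% also occur in transcripts of other genes, and no source used here says how reads with several matches were counted. The same share was 62.7% for Ddx18, 40.9% for Npm1, 37.6% for Nop56 and 21.0% for Pes1, so values of these 5 genes are uncertain. For 27 of the 46 genes no such word was shared. The library kit does not mark strand, and exons of opposite-strand genes covered 37.3% of the exonic bases of Tbl3 (Noxo1), 20.9% of Noc2l (Samd11) and 11.5% of Utp14a (9530027J09Rik).

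**Figure D1:**
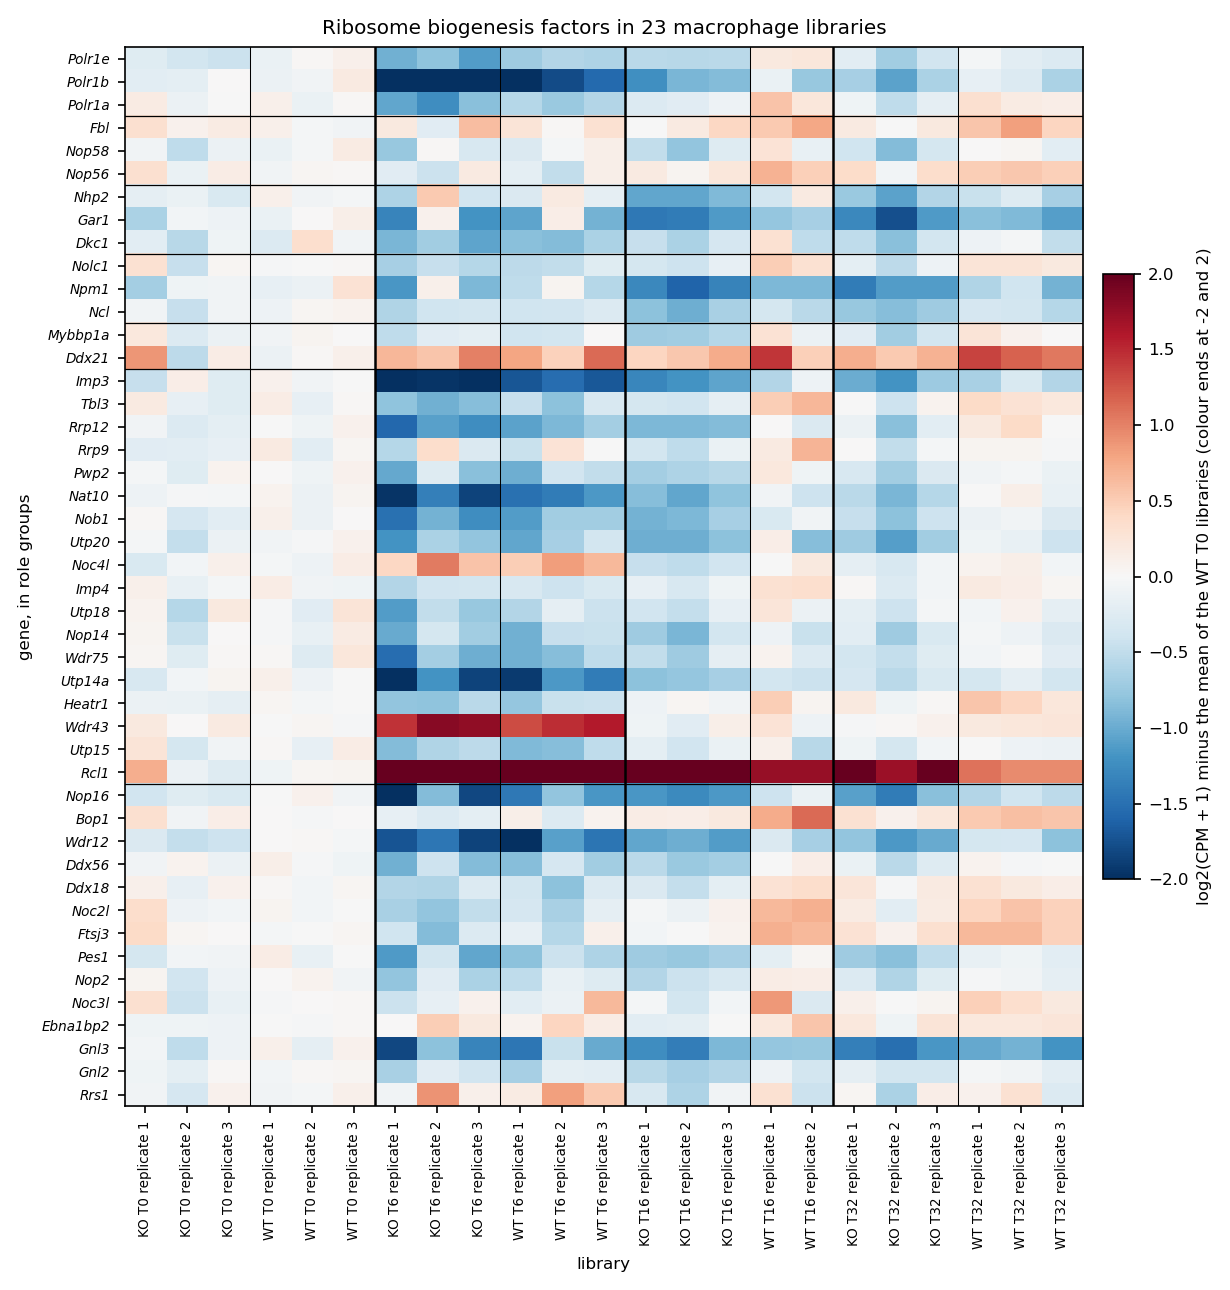
Colour gives log2(CPM + 1) of each of the 46 genes (rows, in role groups) in each of the 23 libraries (columns, KO left of WT within each time) minus the mean of the 3 WT T0 libraries, with colours ending at -2 and 2. Most rows are blue at T6 in both genotypes, Rcl1 and Wdr43 are red there, and at T16 the 3 KO columns are bluer than the 2 WT columns in most rows.

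Most of the set was lower in LPS-treated cells at T6 than in untreated cells at T0 in both genotypes, and a few members went the other way. Untreated libraries exist at T0 only, so LPS and time cannot be told apart in any comparison with T0. In KO, 30 lower and 4 higher genes were called at T6 against T0 (all genes: 32.4% lower, 26.2% higher), at an adjusted p under 0.05 (Benjamini-Hochberg over all genes tested, edgeR quasi-likelihood test). In WT, 27 lower and 4 higher were called (all genes: 31.9% lower, 27.3% higher). The median log2 fold change of the 46 genes was -0.59 in KO, where all genes had -0.17, and -0.49 in WT, where all genes had -0.14. The share of the set called lower, 65.2% in KO and 58.7% in WT, was above that of all genes. Of the 46 genes, 26 were lower and 3 higher at T6 in both genotypes. Without KO T0 replicate 1, 25 were called lower in KO, with a median of -0.53. Without replicate 2 of both T6 groups, 32 lower and 3 higher were called in KO and 28 lower and 4 higher in WT.

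All 3 RNA polymerase I genes fell at T6. Polr1b, a catalytic core subunit, had 2.04, 1.88 and 2.18 CPM in KO T6 against 10.3, 10.4 and 12.2 CPM in KO T0 and 2.1, 2.79 and 3.48 CPM in WT T6 against 11, 11.5 and 13.9 CPM in WT T0. Every T6 library was below every T0 library, with a log2 fold change of -2.42 ± 0.23, adjusted p = 2.0e-08 in KO (SE after the sign ±) and -2.13 ± 0.23, adjusted p = 8.7e-08 in WT. Polr1a, the largest subunit, was lower with a log2 fold change of -1.12 in KO and -0.67 in WT, and Polr1e, a subunit used in initiation, with -0.88 in KO and -0.84 in WT.

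Of the 6 snoRNP genes, 1 was called at T6, the same in both genotypes. Of the 3 box C/D core genes, Nop56, Nop58 and the methyltransferase gene Fbl, 0 were called at T6 in either genotype. Fbl had 0.976, 0.471 and 1.64 CPM in KO T6 against 1.15, 0.831 and 0.929 CPM in KO T0 and 1.07, 0.762 and 1.12 CPM in WT T6 against 0.856, 0.681 and 0.643 CPM in WT T0, with log2 fold changes of 0.096 ± 0.34, adjusted p = 0.827 in KO and 0.45 ± 0.35, adjusted p = 0.279 in WT. Of the box H/ACA genes, Dkc1, the pseudouridine synthase, had 2.26, 2.77 and 1.96 CPM in KO T6 against 4.27, 3.19 and 4.75 CPM in KO T0 and 2.43, 2.35 and 2.96 CPM in WT T6 against 4.08, 6.7 and 4.86 CPM in WT T0. Dkc1 was lower at T6 in both genotypes with no overlap of the libraries, by -0.81 ± 0.27, adjusted p = 0.0146 in KO and -1.01 ± 0.27, adjusted p = 0.00298 in WT. Gar1 and Nhp2 were not called at T6, where their libraries were split. Gar1 had 3.55, 11 and 3.96 CPM in KO T6 and 4.47, 11.4 and 4.86 CPM in WT T6. Nhp2 had 20.6, 46.3 and 24.4 CPM in KO T6 and 26, 36.4 and 28.2 CPM in WT T6. For both genes, replicate 2 lay above all T0 libraries of its genotype and the other T6 libraries lay below them. The split was not limited to these genes. In both genotypes replicate 2 was also the highest T6 library for Npm1, Rrs1, Gnl3, Nop16 and Utp14a, and the lowest for Polr1a and Rcl1. Npm1 had 5.81, 15.4 and 7.23 CPM in KO T6 and 9.71, 14.9 and 9.25 CPM in WT T6.

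Among the abundant nucleolar proteins, Ncl (nucleolin) had 163, 187 and 191 CPM in KO T6 against 236, 180.1 and 235 CPM in KO T0 and 187, 189 and 204 CPM in WT T6 against 231, 253 and 259 CPM in WT T0. The KO libraries overlapped and the WT libraries did not. The log2 fold change of Ncl was -0.27 ± 0.12, adjusted p = 0.0679 in KO and -0.36 ± 0.12, adjusted p = 0.0175 in WT. Ddx21, a nucleolar RNA helicase, had 43.9, 40.9 and 56.4 CPM in KO T6 against 51.3, 18.8 and 30.3 CPM in KO T0 and 48.3, 38.1 and 61 CPM in WT T6 against 25.2, 27.8 and 29.4 CPM in WT T0. It was called higher in WT (0.84 ± 0.27, adjusted p = 0.0121), without overlap; the KO libraries overlapped (0.49 ± 0.27, adjusted p = 0.129). The difference between these responses was not called (interaction -0.35 ± 0.38, adjusted p = 1).

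The small subunit processome genes held both deep falls and the strongest rises. Imp3, a partner of the U3 snoRNP that acts in early cleavage, had 2.04, 3.0 and 1.68 CPM in KO T6 against 10.3, 16.2 and 12.2 CPM in KO T0 (-2.54 ± 0.23, adjusted p = 7.9e-09). In WT it had 3.8, 4.44 and 3.83 CPM in WT T6 against 15.5, 13.8 and 14.6 CPM in WT T0 (-1.87 ± 0.22, adjusted p = 3.0e-07). Nat10, an RNA acetyltransferase, was lower at -1.81 in KO and -1.45 in WT, Utp14a at -1.704 in KO and -1.53 in WT, and Rrp12 at -1.33 in KO and -1.02 in WT. Against these, Rcl1, a cyclase-like protein of the processome, had 92.2, 38.9 and 92.2 CPM in KO T6 against 6.17, 3.01 and 2.62 CPM in KO T0 and 66.3, 27.6 and 59.2 CPM in WT T6 against 3.08, 3.44 and 3.52 CPM in WT T0. All T6 libraries lay above all T0 libraries, and replicate 2 was the lowest T6 library in both genotypes. Rcl1 was 18.7-fold higher in KO (log2 4.23 ± 0.39, adjusted p = 1.2e-08) and 15.2-fold higher in WT (log2 3.93 ± 0.39, adjusted p = 3.3e-08). Wdr43, a processome protein that joins early, had 101, 131 and 126 CPM in KO T6 against 41.6, 36.5 and 41.4 CPM in KO T0 and 91.8, 103 and 112 CPM in WT T6 against 36.1, 37.4 and 35.7 CPM in WT T0. It was 3.0-fold higher in KO (adjusted p = 2.2e-09) and 2.8-fold higher in WT (adjusted p = 5.5e-09), without overlap. Noc4l was higher by a log2 fold change of 0.804 in KO and 0.68 in WT. With libraries scaled to their totals, which moved the median of all genes to -0.9995 in KO and -0.94 in WT, Noc4l had -0.034 in KO and -0.12 in WT.

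Of the 60S factors, Wdr12 had 0.932, 1.35 and 0.773 CPM in KO T6 against 4.27, 3.6 and 3.82 CPM in KO T0 and 0.534, 2.03 and 1.33 CPM in WT T6 against 5.48, 5.52 and 5.28 CPM in WT T0. No T6 library reached any T0 library, and the log2 fold change was -1.95 ± 0.33, adjusted p = 3.5e-05 in KO and -2.12 ± 0.32, adjusted p = 1.0e-05 in WT. Wdr12 forms a complex with Pes1 and Bop1 that is needed for 60S maturation. Pes1 was lower at -0.68 in KO and -0.64 in WT, whereas Bop1 was called lower in KO (-0.36 ± 0.13, adjusted p = 0.0202) and not in WT (-0.01 ± 0.13, adjusted p = 0.937), a difference that was not called (interaction -0.35 ± 0.18, adjusted p = 1). Nop16 was lower at -1.32 in KO and -1.21 in WT. Ebna1bp2 was called higher in KO (0.34 ± 0.14, adjusted p = 0.038) and not in WT (0.23 ± 0.14, adjusted p = 0.16); its KO value was -0.49 with libraries scaled to their totals.

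**Figure D2:**
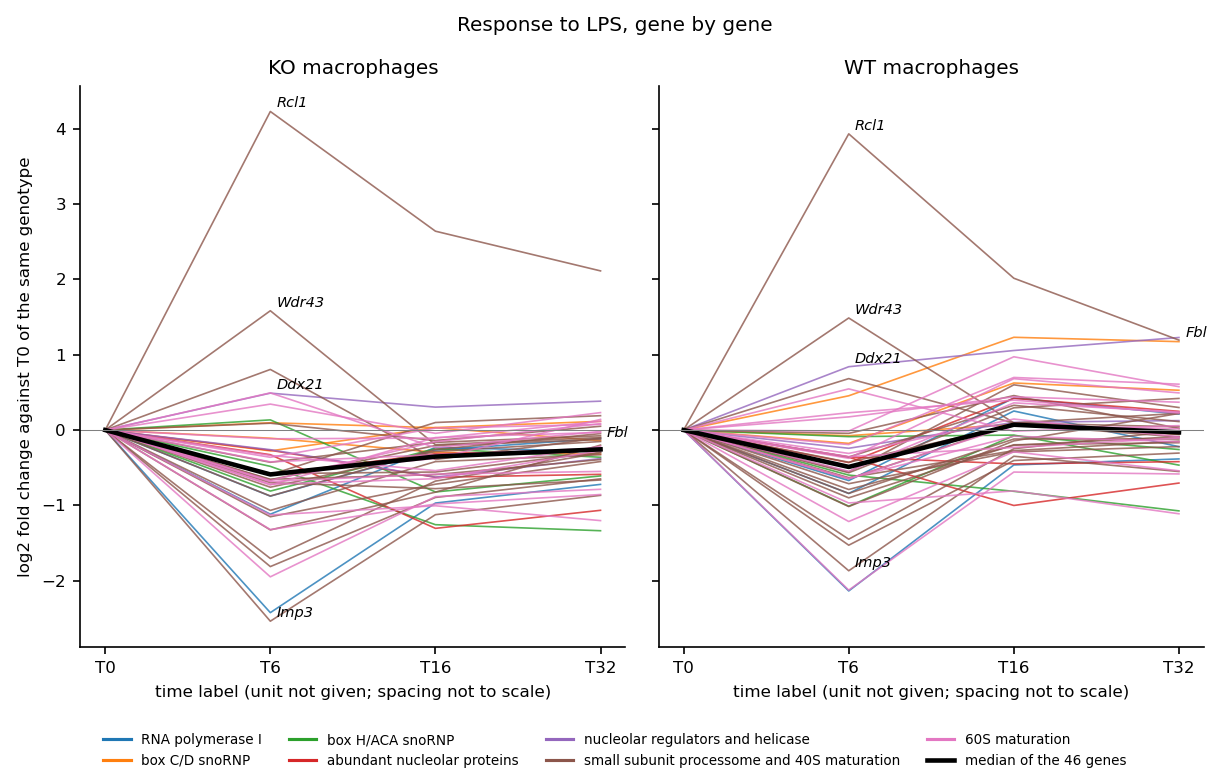
Each line is 1 of the 46 genes, with its log2 fold change against T0 of the same genotype at T6, T16 and T32, KO in the left panel and WT in the right, coloured by role; the black line is the median. The medians run -0.59, -0.35 and -0.26 in KO and -0.49, 0.07 and -0.03 in WT, where the sign of the T16 and T32 medians changed with 1 library left out, and Rcl1 stands above all other lines at T6 in both panels.

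At T16, 21 lower and 1 higher genes were called in KO against T0 (all genes: 23.3% lower, 20.4% higher), with a median log2 fold change of -0.35, and 3 lower and 11 higher in WT (all genes: 17.2% lower, 18.8% higher), with a median of 0.07. At T32, 12 lower and 1 higher were called in KO (all genes: 20% lower, 18.2% higher; median -0.26) and 4 lower and 8 higher in WT (all genes: 21.9% lower, 24.5% higher; median -0.03). Of the 21 genes lower in KO at T16, 3 were called lower in WT at T16, and of the 11 higher in WT, 1, Rcl1, was called higher in KO. The share called lower in KO was 45.7% at T16, above that of all genes, and 26.1% at T32, nearer to it. In WT the share called lower, 6.52% at T16 and 8.7% at T32, was below that of all genes. The share called higher in WT, 23.9% at T16 and 17.4% at T32, was near that of all genes. These counts do not test the difference between genotypes, which follows below. The WT counts at T16 rest on 2 libraries: 7 were higher without replicate 1, and 0 lower without replicate 2. The WT T16 median was -0.097 without replicate 1 and 0.197 without replicate 2, and the WT T32 median was 0.04 without WT T0 replicate 3. Without KO T0 replicate 1, 19 were lower in KO at T16 and 9 at T32, with medians of -0.27 and -0.2. With libraries scaled to their totals, WT T16 had 14 lower and 2 higher, while the median of all genes moved to -0.45.

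The genes above their T0 level in WT at the later times came from several roles. Fbl had 1.47 and 1.95 CPM at T16 and 1.53, 2.04 and 1.33 CPM at T32 in WT, against 0.856, 0.681 and 0.643 CPM at T0, with log2 fold changes of 1.23 ± 0.37, adjusted p = 0.0127 and 1.17 ± 0.33, adjusted p = 0.00763. In KO, Fbl had 0.706, 0.96 and 1.3 CPM at T16 and 0.955, 0.723 and 0.981 CPM at T32, which overlap the T0 values given above, and was not called. Ddx21 had 75.4 and 38.7 CPM at T16 and 71.6, 63.3 and 58.1 CPM at T32 in WT, called higher than at T0 by 1.06 and 1.23. In KO it had 37.4, 40.2 and 46.5 CPM and 46.2, 39.9 and 45.1 CPM, not called at 0.304 and 0.38. The KO T0 libraries of Ddx21 were far apart, with 51.3, 18.8 and 30.3 CPM. Replicate 1 of KO T0 lay above all KO libraries at T16 and T32, and the other KO T0 libraries lay below all of them. The 2 WT T16 libraries of Ddx21 were far apart, and it was not called at T16 without WT T16 replicate 1, nor was Fbl without WT T16 replicate 2. Bop1, Nop56, Noc2l and Ftsj3 were higher in WT at T16 and at T32. Their log2 fold changes were 0.97 and 0.58 for Bop1, 0.62 and 0.53 for Nop56, 0.68 and 0.49 for Noc2l, and 0.698 and 0.61 for Ftsj3.

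Gnl3 was called lower than at T0 at both later times in both genotypes, and Npm1 and Gar1 in 3 of those 4 comparisons each. Gnl3 (nucleostemin, a GTPase) had 11.7, 10.6 and 15.2 CPM at T16 and 10.7, 9.65 and 12.4 CPM at T32 in KO, against 28, 20.3 and 27 CPM at T0. In WT, Gnl3 had 16.6 and 16.8 CPM at T16 and 13.9, 14.6 and 12.1 CPM at T32, against 31.3, 25.5 and 30.9 CPM at T0. Its log2 fold changes were -1.005 and -1.202 in KO and -0.81 and -1.11 in WT. Npm1 (nucleophosmin) had 5.26, 4.02 and 5.06 CPM in KO T16 against 8.51, 13.4 and 13.6 CPM in KO T0 (-1.305 ± 0.29, adjusted p = 0.0014) and 7.24 and 7.21 CPM in WT T16 against 12.6, 13.1 and 17.6 CPM in WT T0 (-1.001 ± 0.33, adjusted p = 0.0227). At T32, Npm1 had 4.77, 6.06 and 6.07 CPM in KO (-1.07 ± 0.29, adjusted p = 0.00707) and 9.05, 10.6 and 6.94 CPM in WT, not called (-0.704 ± 0.29, adjusted p = 0.0501). Gar1, a box H/ACA core protein, had 3.21, 3.31 and 4.18 CPM in KO T16 against 6.27, 9.87 and 9.53 CPM in KO T0 (-1.26 ± 0.37, adjusted p = 0.0103), and 3.63, 2.34 and 4.19 CPM in KO T32 (-1.34 ± 0.37, adjusted p = 0.00809). In WT, Gar1 had 5.63 and 6.16 CPM at T16, not called (-0.81 ± 0.41, adjusted p = 0.134), and 5.34, 5.12 and 4.28 CPM in WT T32 against 9.35, 10.4 and 11.3 CPM in WT T0 (-1.07 ± 0.37, adjusted p = 0.0218). In each of these comparisons the later libraries lay below all T0 libraries.

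Rcl1 stayed above T0, with 21.2, 19.6 and 33.4 CPM at T16 and 17.3, 13.2 and 21.1 CPM at T32 in KO, and 13.5 and 13.6 CPM at T16 and 8.26, 7.36 and 7.39 CPM at T32 in WT. The fold over T0 at T16 was 6.23 in KO (adjusted p = 1.0e-05) and 4.04 in WT (adjusted p = 0.000472). At T32 it was 4.32 in KO (adjusted p = 0.000136) and 2.29 in WT (adjusted p = 0.0116). Wdr43 had 34.1, 30.8 and 39.5 CPM in KO and 44 and 33.7 CPM in WT at T16, and was not called against T0 at T16 or T32 in either genotype.

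Between the genotypes, averaged over the 4 times, 27 lower and 1 higher genes were called in KO against WT (all genes: 10.3% lower, 12.1% higher). The median log2 fold change of the set was -0.32, against -0.01 for all genes, and 44 of 46 genes had a negative value. Lower were 3 of 3 RNA polymerase I, 1 of 3 box C/D, 1 of 3 box H/ACA, 3 of 3 abundant nucleolar protein, 1 of 2 regulator, 10 of 18 small subunit and 8 of 14 60S genes. The lowest p values were those of Polr1e (-0.54 ± 0.09, adjusted p = 0.000356), Imp3 (-0.62 ± 0.11, adjusted p = 0.000418), Tbl3 (-0.45 ± 0.08, adjusted p = 0.00064), Nat10 (-0.47 ± 0.09, adjusted p = 0.000671) and Rrp12 (-0.55 ± 0.10, adjusted p = 0.000803). The 58.7% of the set called lower compares with the share of all genes above. With each library left out in turn, 23 to 36 genes were lower. Noc3l and Rrs1 were called in none of the comparisons.

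**Figure D3:**
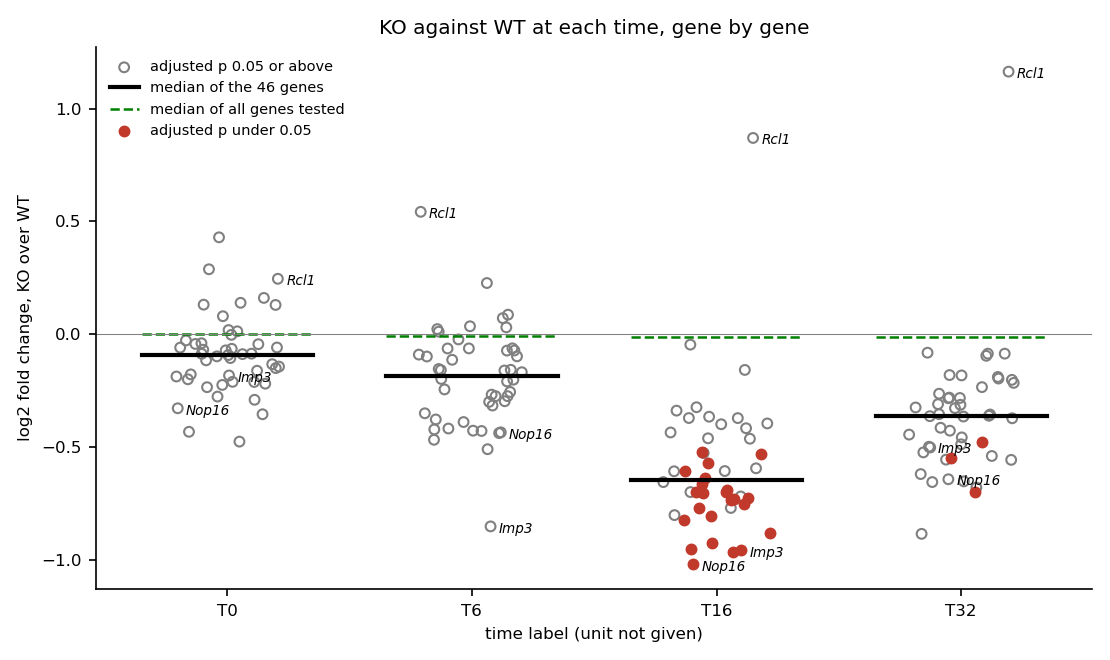
Each point is the log2 fold change of 1 of the 46 genes, KO over WT, at T0, T6, T16 and T32; filled points had an adjusted p under 0.05, the black bar is the median of the 46 genes and the dashed green line that of all genes tested. The medians were -0.09, -0.18, -0.65 and -0.36, and Rcl1 stands above zero at every time.

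At T0 edgeR called 0 lower and 0 higher in KO against WT (all genes: 0.114% lower, 1.83% higher), with 1 of 46 genes, Polr1e, at an unadjusted p under 0.05 (9.78% of all genes), and DESeq2 called 0. At T6 edgeR called 0 lower and 0 higher (all genes: 0.0887% lower, 0.209% higher), with 7 of 46 genes at an unadjusted p under 0.05, all negative (9.45% of all genes), and DESeq2 called 0. These were Imp3, Polr1a, Polr1e, Rrp12, Nat10, Tbl3 and Nob1, and Imp3 had the lowest p (-0.85 ± 0.23, adjusted p = 0.125). The median was -0.09 at T0 and -0.18 at T6, where it was -0.05 without KO T6 replicate 1 and -0.34 without KO T6 replicate 2. Every KO library lay below every WT library in 6 of 46 genes at T0 (6.3% of all genes) and in 4 at T6 (5.08% of all genes).

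At T16 the median of KO over WT was below 0 in each of the 7 roles. Of the 46 genes, 23 lower and 0 higher were called (all genes: 3.48% lower, 4.16% higher), 45 had a negative log2 fold change, and the median was -0.65 against -0.01 for all genes. All 3 KO libraries lay below both WT libraries in 36 of the 46 genes (21.5% of all genes). Lower were 2 of 3 RNA polymerase I, 0 of 3 box C/D, 1 of 3 box H/ACA, 1 of 3 abundant nucleolar protein, 1 of 2 regulator, 9 of 18 small subunit and 9 of 14 60S genes. Together the 46 genes took 0.0848, 0.0852 and 0.0963% of all counts in KO and 0.167 and 0.126% in WT. The number called rested on single libraries. It was 3 without WT T16 replicate 2, 5 without KO T16 replicate 1, 8 without KO T16 replicate 2, 12 without KO T16 replicate 3, 2 without the 4 WT libraries that hold Y-linked transcripts, and 0 in a fit to the 5 T16 libraries alone, with a median between -0.71 and -0.62 in these settings. Without WT T16 replicate 1, 17 were called, the median was -0.55 and 39 of 46 were negative. With Y-linked RNA as a term in the fit of all libraries, 27 were called lower. DESeq2 called the same 23 genes lower.

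Summed stromal and macrophage markers also did not overlap between the groups at T16, with 0 of the 6 stromal genes called by edgeR, while the granulocyte sums overlapped. The granulocyte sums did not overlap at T6 (578 to 702 CPM in KO, 303 to 523 CPM in WT) or T32 (84.5 to 131 CPM in KO, 48.8 to 68.1 CPM in WT). Macrophage sums were also apart at T32 (19980 to 21150 CPM in KO, 22420 to 24160 CPM in WT). At T16 the values were as follows. The 6 stromal markers together had 81.9 to 224 CPM in KO and 363.5 to 394 CPM in WT, the 8 granulocyte markers 300.3 to 373 CPM in KO and 134.5 to 323 CPM in WT, and the 8 macrophage markers 20280 to 21370 CPM in KO and 22470 to 26700 CPM in WT, with none of the macrophage markers at 0 in any group. Summed markers reached at most 36 CPM for T, B and NK cells, 3.91 CPM for dendritic cells and 1.28 CPM for erythroid cells in any library. Their part in the result was not tested.

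The 60S gene Bop1 (chr15:76452989-76477277, minus strand, GRCm38) had the lowest p at T16. Bop1 had 30.9, 30.5 and 31.7 CPM in KO against 46.9 and 61.9 CPM in WT at T16, a mean of 31 ± 0.584 (SD, n = 3) in KO, and a log2 fold change of -0.81 ± 0.14, adjusted p = 0.00285. At T0 it had 34.7, 26.4 and 30.4 CPM in KO against 28, 27.3 and 27.8 CPM in WT, which overlap, and from T0 to T16 it changed by 0.03 in KO (not called) and 0.97 in WT (called). Noc2l, which acts in transport of the large subunit precursor, had 86.1, 81.8 and 94.6 CPM in KO against 139 and 145 CPM in WT (-0.702 ± 0.16, adjusted p = 0.0118). Ddx56, a helicase of 60S assembly, had 20.7, 17.9 and 18.7 CPM in KO against 30.6 and 33.8 CPM in WT (-0.75 ± 0.17, adjusted p = 0.0122). The largest difference among the called genes was that of Nop16 (chr13:54584185-54590090, minus strand), with 6.71, 6.15 and 6.83 CPM in KO against 12 and 14.7 CPM in WT (-1.02 ± 0.27, adjusted p = 0.027). In all 4 genes the KO libraries lay below the WT libraries at T16.

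Among the small subunit genes, Imp3 (chr9:56937475-56938398, plus strand) had 5.33, 5.87 and 6.56 CPM in KO against 9.44 and 13.6 CPM in WT at T16 (-0.96 ± 0.23, adjusted p = 0.0153). Imp4, which works with Imp3, had 40.9, 36.6 and 43 CPM in KO against 56.9 and 58.3 CPM in WT (-0.52 ± 0.13, adjusted p = 0.0171). Tbl3, a scaffold protein of the processome, had 14.8, 14.5 and 16.8 CPM in KO against 27.5 and 31 CPM in WT (-0.93 ± 0.17, adjusted p = 0.00401), with the antisense overlap named above. These groups did not overlap. Rrp12, whose yeast counterpart acts in export of subunit precursors, had 4.84, 4.84 and 4.96 CPM in KO against 9.99 and 7.96 CPM in WT (-0.88 ± 0.22, adjusted p = 0.0202). Nat10 had 11.5, 9.99 and 11.8 CPM in KO against 20.4 and 15.8 CPM in WT (-0.71 ± 0.18, adjusted p = 0.0237), again without overlap.

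Genes of RNA polymerase I and of other nucleolar proteins were lower at T16 as well. Polr1e (chr4:45018583-45036565, plus strand) had 2.75, 2.7 and 2.75 CPM in KO against 5.23 and 5.37 CPM in WT (-0.95 ± 0.20, adjusted p = 0.00671). Polr1a had 18.7, 19.4 and 21.1 CPM in KO against 34.6 and 26.9 CPM in WT (-0.64 ± 0.16, adjusted p = 0.0189). Every KO library was below every WT library in both. Mybbp1a, a nucleolar regulator of ribosomal RNA synthesis, had 49.5, 49.9 and 54.8 CPM in KO against 100.1 and 75.4 CPM in WT (-0.77 ± 0.17, adjusted p = 0.0119). Nolc1, a chaperone of snoRNPs, had 21.7, 20.8 and 24.9 CPM in KO against 39.98 and 34.9 CPM in WT (-0.74 ± 0.18, adjusted p = 0.0157). Nhp2, a box H/ACA core protein, had 15, 15 and 16.9 CPM in KO against 24.7 and 36.5 CPM in WT (-0.97 ± 0.25, adjusted p = 0.0247). None of these overlapped. Nop58 was called lower in the average over times (-0.403 ± 0.11, adjusted p = 0.0105) but not at T16, where it had 14.5, 11.7 and 17.3 CPM in KO against 25.3 and 18.8 CPM in WT (-0.61 ± 0.23, adjusted p = 0.106).

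The other 9 genes called lower at T16 were Ddx18, Ebna1bp2, Ftsj3, Nob1, Noc4l, Nop2, Pes1, Pwp2 and Rrp9, with log2 fold changes of -0.82 to -0.53 and adjusted p of 0.0239 to 0.0493.

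**Figure D4:**
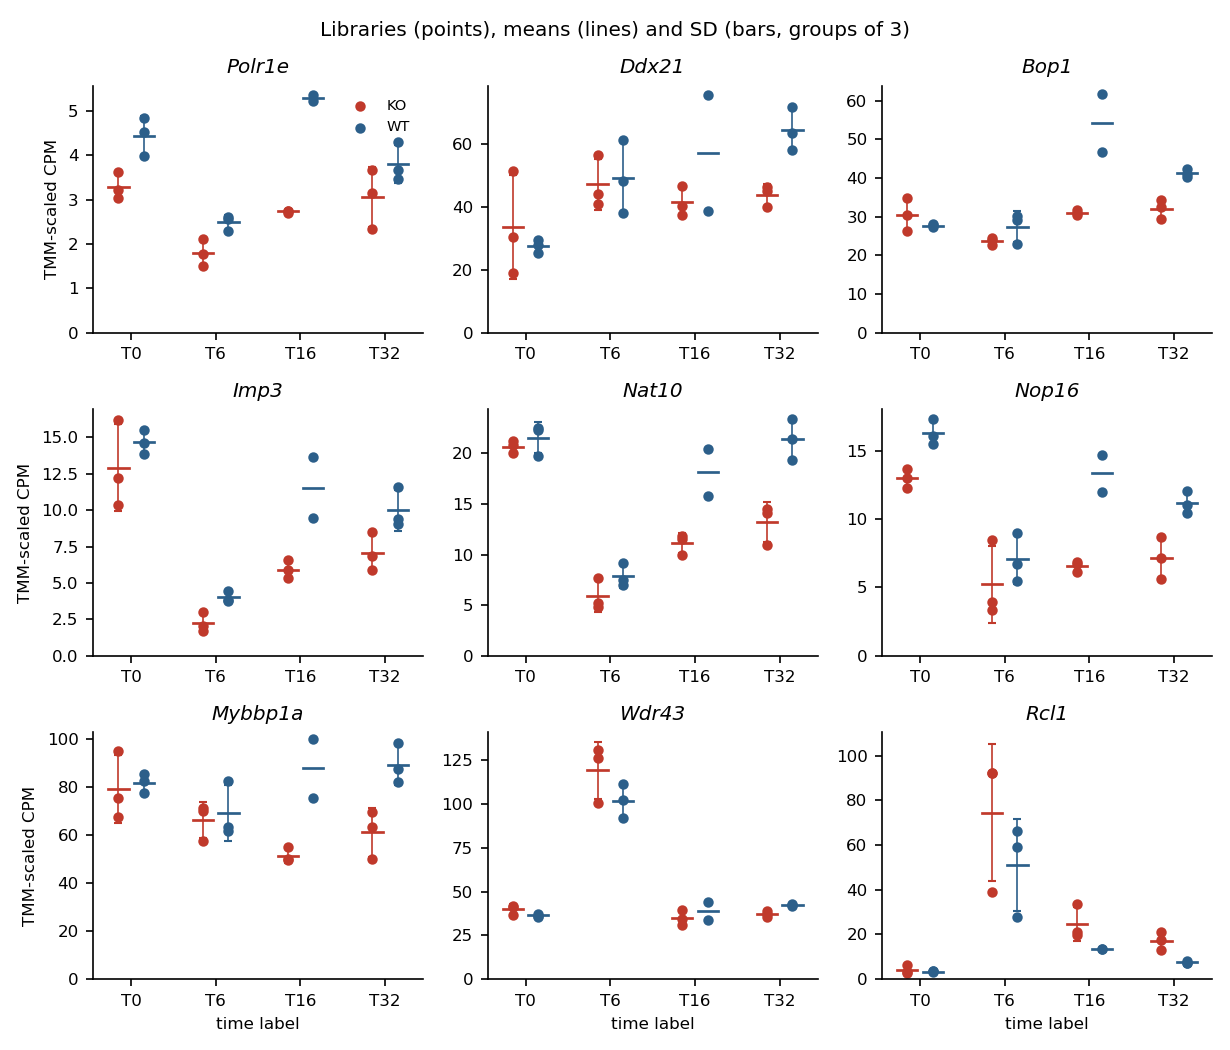
Points are TMM-scaled CPM of single libraries at T0, T6, T16 and T32 for 9 genes, KO left (red) and WT right (blue); lines are means and bars are SD for groups of 3. At T16 the KO points of Polr1e, Bop1, Imp3, Nat10, Nop16 and Mybbp1a lie below the WT points, those of Rcl1 lie above, and those of Ddx21 and Wdr43 overlap.

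At T32, 3 lower and 0 higher genes were called in KO against WT (all genes: 3.34% lower, 3.05% higher), 45 of 46 were negative, the median was -0.36, and every KO library lay below every WT library in 29 of the 46 genes (18.6% of all genes). Nat10 had 14.5, 11 and 14.1 CPM in KO against 21.4, 23.4 and 19.4 CPM in WT (-0.698 ± 0.17, adjusted p = 0.0142). Mybbp1a had 69.8, 50.1 and 63.2 CPM in KO against 98.3, 87.3 and 82.1 CPM in WT (-0.55 ± 0.16, adjusted p = 0.043). Polr1a had 21.5, 15.8 and 19.99 CPM in KO against 28.8, 25.7 and 25.2 CPM in WT (-0.48 ± 0.14, adjusted p = 0.049). The 6.52% of the set called lower was near the share of all genes. In these 3 genes, which were also lower at T16, the groups did not overlap. The number called at T32 was 0 without WT T32 replicate 2, 0 without KO T32 replicate 2, 6 without KO T6 replicate 2, 8 by DESeq2, 8 with Y-linked RNA as a term and 18 in a fit to the 6 T32 libraries alone.

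Rcl1 (chr19:29101375-29143929, plus strand) was the 1 gene called higher in KO, in the average over the times (0.71 ± 0.18, adjusted p = 0.00839). Its KO over WT log2 fold changes were 0.25 at T0, 0.54 at T6, 0.87 at T16 (adjusted p = 0.172) and 1.16 at T32 (adjusted p = 0.051). The KO libraries were above all WT libraries at T16 and T32, and the groups overlapped at T0 and T6. Wdr43, which was also higher at T6 than at T0, had 0.13, 0.23, -0.16 and -0.19 at T0, T6, T16 and T32, none called.

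Whether the difference between the genotypes changed with time was tested as an interaction. From T0 to T6 edgeR called 0 lower and 0 higher (all genes: 0.095% lower, 0.00634% higher), from T0 to T16 0 lower and 0 higher (all genes: 0.0444% lower, 0.0253% higher) and from T0 to T32 0 lower and 0 higher (all genes: 0.298% lower, 0.0887% higher). At an unadjusted p under 0.05 there were 2 of 46 genes for T6 (5.09% of all genes), 18 for T16 (9.61% of all genes) and 9 for T32 (9.05% of all genes), and DESeq2 called 0, 3 and 0 lower. The median change was -0.06 for T6, -0.504 for T16 and -0.26 for T32. The T6 median was -0.26 without KO T6 replicate 2 and 0.04 without KO T6 replicate 1, and the T32 median was -0.16 without KO T32 replicate 2. Bop1 changed by -0.95 ± 0.19, adjusted p = 0.0629 from T0 to T16, the lowest p of the set at that time. These 3 tests share the T0 libraries.

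The other genes of the pathway, 85 genes listed in the same roles with none of the 46 among them, were all tested. At T6 against T0, 32 lower and 14 higher were called in KO (all genes: 32.4% lower, 26.2% higher) and 28 lower and 13 higher in WT (all genes: 31.9% lower, 27.3% higher). The share of the 85 called lower was near that of all genes in both genotypes. Sbds, a factor of late 60S maturation, had 2.28 ± 0.17, adjusted p = 4.9e-10 in KO and 1.96 ± 0.17, adjusted p = 3.8e-09 in WT, and Cd3eap, a subunit of RNA polymerase I, had -1.398 ± 0.13, adjusted p = 1.7e-08 in KO and -1.43 ± 0.13, adjusted p = 1.3e-08 in WT. At T16 against T0, 32 lower and 3 higher were called in KO (all genes: 23.3% lower, 20.4% higher) and 3 lower and 9 higher in WT (all genes: 17.2% lower, 18.8% higher). Between KO and WT, 0 lower and 0 higher were called at T0, 0 lower and 0 higher at T6, 13 lower and 0 higher at T16, 3 lower and 0 higher at T32 and 25 lower and 1 higher in the average, with medians of -0.06, -0.06, -0.42, -0.22 and -0.198. Of all genes, 0.114% were called lower at T0, 0.0887% at T6, 3.48% at T16, 3.34% at T32 and 10.3% in the average. Of the 85, the numbers at an unadjusted p under 0.05 were 1 at T0 (9.78% of all genes) and 3 at T6 (9.45% of all genes). Bysl, a 40S factor, had -0.99 ± 0.17, adjusted p = 0.00244 at T16 and Cd3eap had -0.81 ± 0.14, adjusted p = 0.00292. Nop10, a further box H/ACA core protein, had -1.05 ± 0.21, adjusted p = 0.00635 at T16 and -0.66 ± 0.19, adjusted p = 0.0471 at T32.

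Of 79 cytosolic ribosomal protein genes, 74 were tested, many of them with processed pseudogenes that can share reads. At T16 against T0, 62 lower and 0 higher were called in KO (all genes: 23.3% lower, 20.4% higher) and 33 lower and 0 higher in WT (all genes: 17.2% lower, 18.8% higher). The medians were -1.55 in KO and -0.92 in WT. Between KO and WT, 9 lower and 0 higher were called at T16 and 12 lower and 0 higher at T32. Of 20 DNA replication genes, 3 lower and 0 higher were called in KO against WT at T16 and 3 lower and 0 higher at T32. For both lists, all genes had 3.48% lower and 4.16% higher in KO against WT at T16. At T32 all genes had 3.34% lower and 3.05% higher.

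In the MYC network list, of which 11 of 12 genes were tested, 1 lower and 2 higher were called in KO against WT at T16 (all genes: 3.48% lower, 4.16% higher). Mxd1, which competes with MYC for MAX, had 671, 616 and 568 CPM in KO against 113 and 245 CPM in WT at T16 (1.79 ± 0.35, adjusted p = 0.00457). At T32 it had 459, 653 and 422 CPM in KO against 112, 90.2 and 243 CPM in WT (1.79 ± 0.30, adjusted p = 0.00114). The groups did not overlap at either time. At T0, Mxd1 had 75.3, 68.3 and 73.4 CPM in KO against 44.4, 54 and 39.3 CPM in WT, without overlap but not called (0.66 ± 0.29, adjusted p = 0.441). At T6 it had 1370, 1172 and 1355 CPM in KO against 922.5, 767 and 739 CPM in WT, again without overlap and not called (0.68 ± 0.29, adjusted p = 0.438). With Y-linked RNA as a term, the adjusted p of Mxd1 was 0.0129 at T0 and 0.0384 at T6. Mxd4, of the same family, moved the other way, with 14, 17.5 and 10.7 CPM in KO against 29.6 and 33.3 CPM in WT at T16 (-1.17 ± 0.17, adjusted p = 0.00109). At T0 Mxd4 had 133, 139 and 129 CPM in KO against 177.5, 180 and 153 CPM in WT. At T6 it had 8.61, 7.83 and 6.91 CPM in KO against 12.4, 11.9 and 11.5 CPM in WT. At T32 it had 20.25, 21.35 and 16.6 CPM in KO against 37, 43.3 and 31.4 CPM in WT. The Mxd4 groups did not overlap at any time. DESeq2 called Mxd4 lower at T32 (adjusted p = 2.1e-06) but not at T0 or T6. In a fit to the 5 T16 libraries alone neither was called at T16, with adjusted p of 0.0922 for Mxd1 and 0.0931 for Mxd4. Myc had 5.12, 5.69 and 5.36 CPM in KO against 5.42 and 7.92 CPM in WT at T16 and was not called (-0.304 ± 0.28, adjusted p = 0.524). At every time, the WT library with the highest Mxd1 was the one that holds Y-linked transcripts. The part of these genes in the levels of the 46 genes was not tested.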

How the data were processed

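Polyadenylated RNA of 23 libraries was sequenced as single-end 50 bp reads from an unstranded kit, per the labels' protocols, and aligned with GSNAP to GRCm38, per the submitters' processing notes; annotation and counting tool are not known here. The authors deposited raw counts per gene. RPKM adjusted by size factors (nRPKM) came with them, per the file headers. Tables of single libraries were identical to the series tables in 23 of 23 cases. Groups came from the genotype and time labels. A chi-square test of counts (lowest value per degree of freedom 13.9) found no pair of replicates within sampling noise, and none were merged. Since no label names separate animals or cultures, p-values reflect spread among these samples alone, which may be technical in part. In WT it is not all technical, since Y-linked RNA marked 1 library at each time.

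The deposited counts were tested in R 4.3.3 with edgeR 4.0.16: filterByExpr, TMM (factors 0.677 to 1.45), and robust quasi-likelihood fits to all 23 libraries with a mean per group, with Benjamini-Hochberg adjustment over 15782 genes and calls at an adjusted p under 0.05. The common biological coefficient of variation was 0.217. Alternatives were DESeq2 1.42.0, library totals, the factors behind nRPKM, no filter, the compared groups alone, and each library left out in turn; leaving out the WT libraries with Y-linked RNA, or replicate 2 of both T6 groups, was chosen, like the lists, with earlier results known. A term for Y-linked RNA was added after seeing the data. Fits were tested on simulated data. Of 245 genes on the other lists, 236 were matched by symbol. Promoters came from RefSeq (39 of 46 genes matched), and words of 50 bases were compared between transcripts in Python 3.11.15.

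The 46 genes and all lists were chosen with earlier results of these data known. Values per library are given for the lowest p per role in WT T6 against WT T0 and in the genotype average, for up to 12 called genes at each time between genotypes, and for the 2 highest and 2 lowest called genes in each LPS comparison. Nop16 at T16, Wdr43 at T16, and Fbl, Ddx21, Gnl3 and Gar1 beyond the comparisons that rule names were added after their values were seen. Other lists name at most 2 genes per direction and comparison.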

Additional observations from a re-analysis of the deposited data

How the results depend on the processing

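No paired analysis was possible because the labels carry no replicate numbers that pair libraries across groups; Y-linked RNA in 1 WT library at each time does not say whether these came from 1 animal. With library totals as the scale, all genes had a median log2 fold change between -0.9995 and -0.31 against T0. It gave 2 higher in WT T6, 2 higher and 14 lower in WT T16, 3 higher and 13 lower in WT T32, 2 higher in KO T6, 39 lower in KO T16 and 28 lower in KO T32, all against T0; between KO and WT it gave 16 lower at T32, 42 in the average and 1 in the change from T0 to T16. Under it Noc4l turned to -0.034 in KO T6 and -0.12 in WT T6, Ebna1bp2 to -0.49 in KO T6 and -0.057 in WT T16, and Imp4 to -0.11 in WT T16. Leaving out the 4 WT libraries that hold Y-linked RNA gave 4 higher and 0 lower in WT T16, 5 higher and 1 lower in WT T32, and 2 lower in KO against WT at T16. With Y-linked RNA as a term in the fit of all libraries, a setting added after seeing the data, KO against WT at T32 had 1 higher and 8 lower. With the compared groups alone, WT T32 had 10 lower, KO against WT at T16 0 lower, and at T32 1 higher and 18 lower. Without replicate 2 of both T6 groups, WT T32 had 8 lower, KO against WT 1 higher at T16 and 1 higher and 11 lower at T32, and the change from T0 to T16 1 lower. With the factors behind nRPKM, 1 gene was higher at T32; with DESeq2, 1 was higher and 8 lower at T32 and 3 lower in the change from T0 to T16; without the filter, 13 were lower at T16 and 1 at T32. With each library left out in turn, the counts ranged over 7 to 11 higher and 0 to 4 lower in WT T16, 1 to 7 lower in WT T32, 1 to 2 higher in KO T16, 1 to 2 higher and 6 to 14 lower in KO T32, 3 to 23 lower in KO against WT at T16, 0 to 1 higher and 0 to 6 lower at T32, and 0 to 2 lower in the change from T0 to T16. The cause was not tested. Where a left-out library left WT T16 with 1 sample, that sample was assumed to vary like the other groups.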
